A study of Mus musculus with 6 samples.

Results

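The levels of 9 genes were followed in mouse epididymal fat: Spi1, Irf4, Irf5, Irf8, Maf, Runx1, Batf3, Zeb2 and Klf4. They encode transcription factors of macrophage and dendritic cell identity, and they were chosen by name for that role. All 9 were found once each among the 54532 gene identifiers of the count table.

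RNA was sequenced from whole epididymal white adipose tissue (eWAT), a visceral fat depot of male mice, in animals fed a high-fat diet for 16 weeks. The 3 knockout samples came from PD-1fl/fl Lyz2-Cre mice, in which Cre recombinase under control of the myeloid gene Lyz2 removes PD-1 from macrophages and other myeloid cells, including neutrophils. The 3 controls were PD-1fl/fl littermates, so both groups carried the floxed allele and both ate the same diet. Lyz2-Cre leaves PD-1 in lymphocytes, and whole tissue mixes fat cells, vessels, stroma and immune cells. The labels used here state neither the animals' ages nor whether each library came from its own animal. The p-values therefore set group differences against the variation between libraries, which may not be that between animals. The study asked how PD-1 on macrophages bears on obesity and metabolism under this diet.

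Myeloid cells are specified by a small set of DNA-binding proteins. Spi1 encodes PU.1, an ETS family factor that opens the enhancers of macrophage, dendritic cell and B cell genes and binds many of them together with interferon regulatory factors (IRFs). RUNX1 acts in blood stem cells and upstream of Spi1, IRF8 and BATF3 direct conventional dendritic cells of type 1, IRF4 and KLF4 act in those of type 2, IRF5 drives inflammatory cytokine genes, MAF belongs to tissue-resident macrophages, and ZEB2 represses genes of competing lineages. Several of these genes are also used outside the myeloid lineage: Klf4 and Zeb2 in endothelium and stroma, Maf in T cells and stroma, and Irf4, Irf8 and Spi1 in B cells.

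Promoter sequences are shown for the 3 IRF genes, because Irf5 and Irf8 followed each other across the libraries while Irf4 did not. RefSeq start sites on GRCm38.p6, the same assembly as mm10, were found for 7 of the 9 genes, all except Spi1 and Maf. Each run gives the bases before the start, up to 250, without annotated exon bases, 5′ to 3′ on the gene's strand. Capitals mark a TATA box, or a core PU.1 motif that lies here on the other strand.
Irf8, chr8:120736108-120736357, plus strand: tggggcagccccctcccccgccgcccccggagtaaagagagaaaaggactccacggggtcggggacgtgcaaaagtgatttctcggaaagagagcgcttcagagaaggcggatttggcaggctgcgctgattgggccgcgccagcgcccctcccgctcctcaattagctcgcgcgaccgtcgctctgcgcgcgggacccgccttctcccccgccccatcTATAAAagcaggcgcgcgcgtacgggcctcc
Irf5, chr6:29526375-29526624, plus strand: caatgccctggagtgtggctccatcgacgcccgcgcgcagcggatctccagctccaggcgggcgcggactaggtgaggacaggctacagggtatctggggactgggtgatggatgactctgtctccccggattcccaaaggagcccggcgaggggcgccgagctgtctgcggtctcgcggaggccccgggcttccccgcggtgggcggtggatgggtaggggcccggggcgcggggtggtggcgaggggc
Irf4, chr13:30748983-30749225, plus strand: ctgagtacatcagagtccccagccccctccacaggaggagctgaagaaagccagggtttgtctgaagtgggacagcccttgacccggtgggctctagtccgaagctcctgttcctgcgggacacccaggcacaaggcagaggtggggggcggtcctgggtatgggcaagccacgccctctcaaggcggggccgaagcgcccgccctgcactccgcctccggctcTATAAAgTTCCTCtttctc

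A set of 6 motifs was searched on both strands of these windows. The PU.1 core was searched as GAGGAA and the TATA box as TATAAA. The RUNX site was searched as TGTGGT and the AP-1 site as TGANTCA. The joint motif of ETS and IRF proteins was searched as GGAA followed after 2 bases by GAAA. The interferon response core was searched as 2 copies of GAAA with 2 bases between them. The joint motif can overlap the PU.1 core and the interferon core. The Irf8 window shown held the TATA box with its first base 31 bases before the start. A second Irf8 start site has a window at chr8:120738389-120738638, not printed, that held none of the 6 motifs. The Irf4 window held the TATA box 26 bases and the PU.1 core 19 bases before the start, and the Irf5 window held none of the 6. Among 32851 RefSeq mouse promoter windows of the same length, 23.3% held the PU.1 core, 12.4% the TATA box, 14% the RUNX site, 6.75% the AP-1 site, 2.98% the interferon response core and 2.3% the joint motif. These are letter matches in a short window and say nothing of binding.

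Library totals ran from 20108185 to 27225533 counts. Control replicate 2 stood apart, with a liver profile: 8 hepatocyte markers averaged 13.5 log2(CPM + 1) there against 0.836 to 8.51 in the others, and 8 adipocyte markers 5.57 against 10.3 to 11.9. CPM here means counts-per-million, with library totals scaled by TMM factors. Control replicate 3 (8.51) and knockout replicate 2 (6.03) also carried hepatocyte transcripts. Fold changes of the 9 factors are therefore given with and without control replicate 2. Reads of Pdcd1, the targeted gene, numbered 19, 19 and 5 in the knockouts against 13, 0 and 0 in the controls, a log2 fold change of 1.46 ± 1.46 (SE, edgeR adjusted p 0.803; 1.02 and 0.852 without control replicate 2). T cells in whole fat also express Pdcd1, so these reads are no check of the genotype.

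The 9 factors did not move as one. Spi1, Runx1, Irf8, Irf5 and Maf had every knockout library above every control, which 9.54% of the 15928 genes tested also showed. Spi1, Runx1, Irf8 and Irf5 had log2 fold changes of 1.90 to 2.70, while Maf stood at 0.34. Irf4, Zeb2 and Klf4 overlapped between the groups with or without control replicate 2. Batf3 overlapped through control replicate 2 alone, so that 6 of 9 factors were apart without that library, against 13.6% of all genes. In whole tissue, more cells of a type and more RNA per cell cannot be told apart.

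None of the 9 passed the edgeR quasi-likelihood test after Benjamini-Hochberg adjustment over all genes. That test called 0 of 15928 genes (0%) when all 6 libraries were used and 0 of 16729 (0%) when control replicate 2 was left out. At an unadjusted p under 0.05, Spi1, Irf5 and Irf8 were higher in knockouts (4.38% of all genes were), and without control replicate 2 also Runx1 and Batf3 (5.46% of all genes). DESeq2 called Spi1, Irf5 and Irf8 with all 6 libraries, where 241 of 16936 genes (1.42%) were called higher, and these 3 and Batf3 without control replicate 2, where 371 of 16698 genes (2.22%) were. The median log2 fold change was 1.21 over the 9 factors (1.88 without control replicate 2) and −0.03 over all genes tested.

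**Figure D1:**
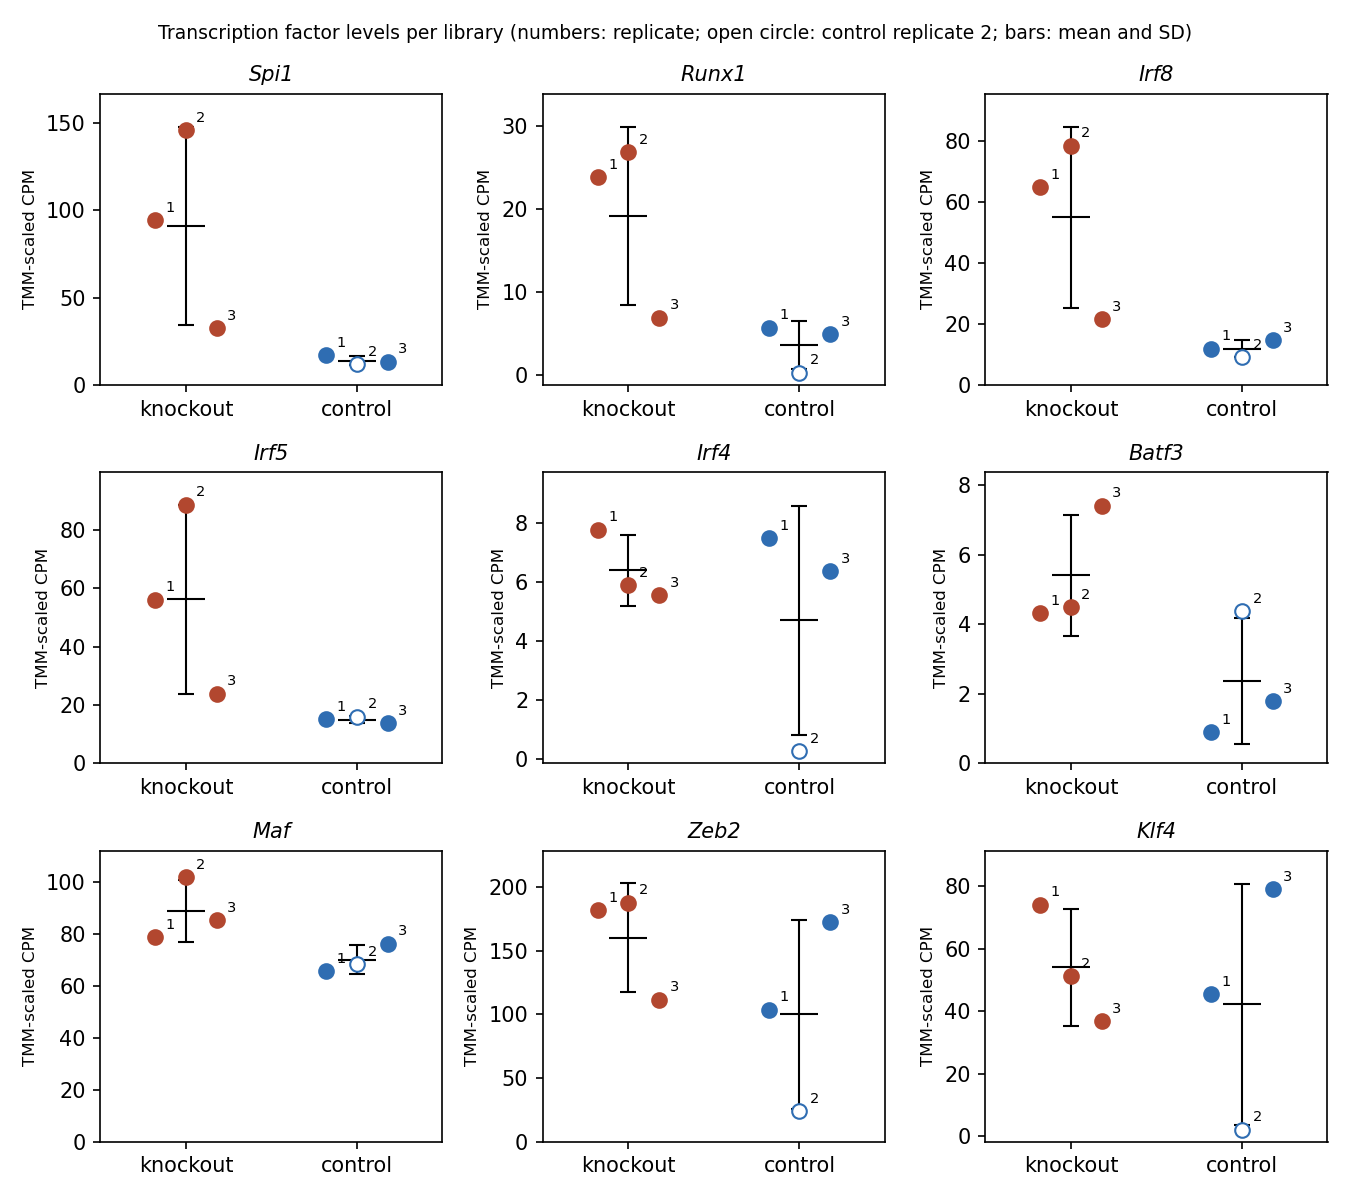
Level of each transcription factor in TMM-scaled counts-per-million (CPM) in the 3 knockout and 3 control libraries. Points are libraries, numbered by replicate, with the mean and SD as bars, and the open circle is control replicate 2. Spi1, Runx1, Irf8, Irf5 and Maf have every knockout point above every control point, with knockout replicate 3 lowest of the knockouts in all of these but Maf.

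Spi1 (ENSMUSG00000002111, chromosome 2, 91082390 to 91115756, plus strand, mm10), the PU.1 gene, had 94.3, 146.0 and 32.7 CPM in knockout replicates 1 to 3 and 16.9, 11.7 and 13.2 CPM in control replicates 1 to 3. The controls lay close together after TMM scaling, and the knockouts spread widely, with replicates 1 and 2 averaging 3.68 times replicate 3. Relative to library totals, with no TMM factor, the controls stood at 16.6, 6.52 and 14.9. Control replicate 2 was then lowest, and every knockout was still above the controls. The means were 90.99 ± 56.7 CPM (SD, n = 3) and 13.95 ± 2.66 CPM. The log2 fold change was 2.70 ± 0.58 (SE), the largest of the 9, at an edgeR p of 0.00291 and an adjusted p of 0.560. It changed little without control replicate 2 (2.62 ± 0.68, adjusted p 0.540). DESeq2 gave Spi1 adjusted p-values of 0.00502 with all 6 libraries and 0.00302 without that library.

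Runx1 (ENSMUSG00000022952, chromosome 16, 92601466 to 92826149, minus strand), which encodes the DNA-binding subunit of core binding factor, had 23.8, 26.8 and 6.91 CPM in knockouts and 5.69, 0.268 and 4.88 CPM in controls. Knockout replicate 3 lay just above the highest control, and the lowest value, in control replicate 2, rested on 3 reads. The log2 fold change was 2.39 ± 1.03 (edgeR adjusted p 0.560), and without control replicate 2 it was 1.88 ± 0.63 (adjusted p 0.540). DESeq2 adjusted p-values for Runx1 were 0.205 and 0.0625. Cbfb, the gene of the partner subunit that stabilises RUNX1 on DNA, had 59.4, 68.5 and 38.4 CPM against 22.9, 28.7 and 32.6 CPM, again without overlap (0.98 ± 0.32, edgeR adjusted p 0.560).

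Irf8 (ENSMUSG00000041515, chromosome 8, 120736358 to 120756694, plus strand) encodes an IRF that pairs with PU.1 in monocytes, dendritic cells and B cells. It had 65.0, 78.5 and 21.5 CPM in knockouts and 11.95, 9.12 and 14.8 CPM in controls, with no overlap. Its log2 fold change was 2.20 ± 0.53 (edgeR p 0.00533, adjusted p 0.560) and 2.06 ± 0.59 without control replicate 2. DESeq2 adjusted p-values were 0.0207 and 0.0189. Irf5 (ENSMUSG00000029771, chromosome 6, 29526625 to 29541871, plus strand), a factor downstream of Toll-like receptors, had 55.99, 88.6 and 23.9 CPM against 15.2, 16.0 and 13.9 CPM. The 3 controls of Irf5 lay close together after TMM scaling, control replicate 2 among them, and each knockout was above them. With no TMM factor, relative to library totals, the controls of Irf5 stood at 14.9, 8.90 and 15.6. Control replicate 2 was then lowest, and each knockout was still above the controls of Irf5. Its log2 fold change was 1.90 ± 0.49 (edgeR p 0.00764, adjusted p 0.560) and 1.97 ± 0.58 without control replicate 2, with DESeq2 adjusted p-values of 0.0481 with all 6 libraries and 0.0245 without control replicate 2.

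The third IRF gene differed from these. Irf4 (ENSMUSG00000021356, chromosome 13, 30749226 to 30766976, plus strand), used by type 2 dendritic cells, alternatively activated macrophages and lymphocytes, had 7.78, 5.89 and 5.55 CPM in knockouts and 7.49, 0.268 and 6.38 CPM in controls. Leaving aside control replicate 2, where Irf4 had 3 reads, the 5 other libraries overlapped and the highest was 1.40 times the lowest. The log2 fold change was 0.43 ± 0.98 (edgeR adjusted p 0.932). It was 0.92 without control replicate 1, and it turned to −0.11 ± 0.33 (adjusted p 0.938) without control replicate 2. The 7 markers of type 2 dendritic cells averaged 4.47, 4.80 and 4.12 log2(CPM + 1) in knockouts against 4.14, 2.94 and 4.29. Control replicate 2 was lowest, as for Irf4, but the markers differed. Only 3 of the 7 had log2 fold changes above 0, with a list median of −0.28 (−0.82 without control replicate 2). Cd209a stood at −0.28, Clec10a at −0.49 and Mgl2 at −0.59. Without control replicate 2 they stood at −0.82, −1.04 and −1.17. Sirpa stood at 2.67, Cd300a at 2.86 and Ltb at 1.70. Kmo had 621.8 CPM in control replicate 2 and 1.80 to 25.6 CPM elsewhere. The part of these cells in the Irf4 values was not tested.

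Batf3 (ENSMUSG00000026630, chromosome 1, 191097847 to 191108945, plus strand), an AP-1 family factor that type 1 dendritic cells need, was one of the least read of the 9 genes, at 24 to 191 reads a library. It had 4.31, 4.49 and 7.41 CPM in knockouts and 0.899, 4.38 and 1.80 CPM in controls. Knockout replicate 3 was highest here, where it was lowest for Spi1, Irf5, Irf8 and Runx1, and control replicate 2 lay at the level of knockouts 1 and 2. That overlap depended on scaling: relative to library totals, with no TMM factor, Batf3 stood at 5.19, 5.61 and 7.94 against 0.882, 2.44 and 2.02. The log2 fold change was 1.21 ± 0.68 (edgeR adjusted p 0.614), and without control replicate 2 it was 2.01 ± 0.53 (adjusted p 0.540, DESeq2 adjusted p 0.0163). Of the type 1 dendritic cell markers, Xcr1, their defining chemokine receptor gene, stood at 0.562 to 1.33 CPM in all 6 libraries and the lectin receptor gene Clec9a at 3.53 to 4.35 CPM in knockouts and 1.76 to 2.49 CPM in controls. The 6 other markers ranged from Snx22 (0.220 to 1.65 CPM) to Naaa (7.51 to 91.7 CPM). The 8 markers of that cell type averaged 2.91 to 3.46 log2(CPM + 1) in knockouts and 2.37 to 2.83 in controls, and their part in the Batf3 values was not tested.

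Maf (ENSMUSG00000055435, chromosome 8, 115682942 to 115707794, minus strand), a bZIP factor of resident macrophages, had the narrowest range of the 9 over all 6 libraries, at 78.99, 102.1 and 85.5 CPM in knockouts and 65.8, 68.5 and 76.4 CPM in controls. The groups did not overlap, but the gap was small, and control replicate 2 lay among the other controls after TMM scaling. When set against library totals, with no TMM factor, Maf stood at 95.0, 127.6 and 91.6 against 64.5, 38.1 and 85.9. Control replicate 2 was then lowest, and the groups still did not overlap. The log2 fold change was 0.34 ± 0.26 (edgeR adjusted p 0.726) and the same without control replicate 2 (0.34 ± 0.25, adjusted p 0.711). DESeq2 adjusted p-values for Maf were 0.821 and 0.742.

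Zeb2 (ENSMUSG00000026872, chromosome 2, 44983632 to 45117395, minus strand), a zinc finger repressor that maintains macrophage identity and also acts in stromal cells, had 181.7, 187.8 and 111.5 CPM in knockouts and 103.8, 24.2 and 172.6 CPM in controls. Klf4 (ENSMUSG00000003032, chromosome 4, 55527143 to 55532466, minus strand), a zinc finger factor of monocytes and vessel walls, had 74.2, 51.2 and 36.98 CPM in knockouts and 45.5, 2.15 and 79.1 CPM in controls. For both genes control replicate 2 was lowest and control replicate 3 lay within or above the knockout range. The log2 fold change of Zeb2 was 0.68 ± 0.69 (edgeR adjusted p 0.807), 0.23 ± 0.37 without control replicate 2 and 1.32 without control replicate 3. That of Klf4 was 0.36 ± 1.04 (adjusted p 0.949), −0.19 ± 0.39 without control replicate 2, 1.18 without control replicate 3 and 0.07 without knockout replicate 1. Endothelial markers, 8 genes, averaged 4.52 log2(CPM + 1) in control replicate 2, below all 5 other libraries (6.64 to 7.06), and their part in the Zeb2 and Klf4 values was not tested.

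**Figure D2:**
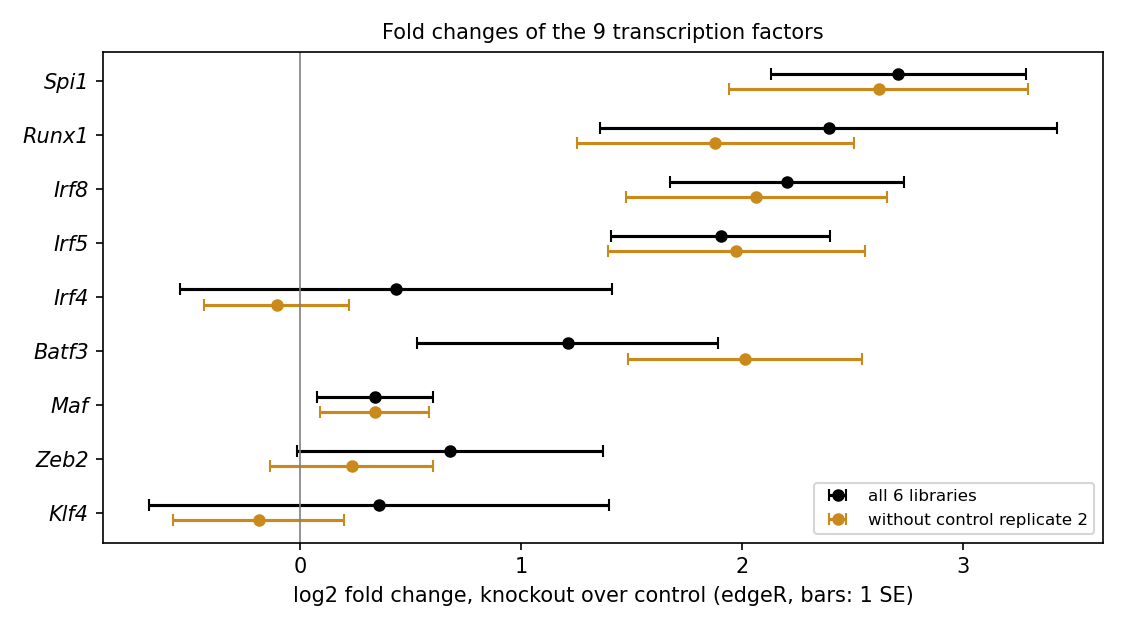
Log2 fold change of each transcription factor, knockout over control, from edgeR with all 6 libraries (black) and without control replicate 2 (ochre). Bars are 1 standard error. Spi1, Runx1, Irf8 and Irf5 lie between 1.88 and 2.70 in both fits, while Irf4 and Klf4 cross 0 when control replicate 2 is left out.

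The title numbers of knockout replicate 3 and control replicate 3 follow each other and lie far from those of the other 4 libraries, and the labels do not say what they mean. Between these 2 libraries the knockout was 2.47 times the control for Spi1, 1.72 for Irf5, 1.46 for Irf8, 1.42 for Runx1, 1.12 for Maf and 4.13 for Batf3. The same ratio was 0.870 for Irf4, 0.646 for Zeb2 and 0.468 for Klf4. With 1 library a side these ratios have no replicate check. With a term for the numbers in the edgeR fit, the log2 fold changes of Spi1, Irf8, Irf5 and Runx1 were 2.50, 2.06, 1.74 and 2.25.

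Irf8 lay nearest to Irf5 and to Spi1 of all pairs among the 9 across the 6 libraries. Centred log2(CPM + 1) profiles differed by a root mean square of 0.308 between Irf5 and Irf8 and 0.313 between Spi1 and Irf8, against 1.56 between Spi1 and Klf4 and 1.90 between Batf3 and Klf4. Irf4 and Zeb2 were also near each other (0.363). In reads per 100 Spi1 reads of the same library, Irf8 stood at 68.98, 53.8 and 65.8 in knockouts and 70.7, 77.9 and 111.6 in controls. Irf5 stood at 59.4, 60.7 and 73.0 against 90.02, 136.6 and 104.7. Maf stood at 83.8, 69.9 and 261.6 against 389.6, 584.7 and 577.0. For Irf8, Irf5 and Maf every knockout ratio was below every control ratio, and the share of all genes with this order was not computed. Klf4 stood at 78.7, 35.1 and 113.2 against 269.2, 18.3 and 597.5, a range of 32.6 times. Such ratios compare reads and not molecules, since the genes differ in length.

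Over 9953 genes with a mean log2 CPM of at least 3, the 3 profiles nearest to Spi1 included those of the lectin receptor gene Clec4a2 (root mean square difference 0.206) and the lysosomal protease gene Ctss (0.206). Nearest to Irf8 were the kinase gene Pak1 (0.121), Unc93b1, a chaperone of Toll-like receptors (0.151), and the receptor phosphatase gene Ptpro (0.158). Nearest to Klf4 were Ace, which encodes angiotensin-converting enzyme (0.197), the small G protein gene Rasd1 (0.214) and the lipid flippase gene Atp10a (0.232). Clec4a2 had 44.6, 59.1 and 18.01 CPM in knockouts and 9.96, 5.28 and 7.55 CPM in controls, the same order of libraries as Spi1 within each group. Ace had 70.8, 68.7 and 53.8 CPM in knockouts and 48.95, 2.95 and 94.4 CPM in controls, with control replicate 2 lowest and control replicate 3 highest as for Klf4. Likeness over 6 libraries is a description, and all profiles come from the same libraries and share their depth and mixture of cells.

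**Figure D3:**
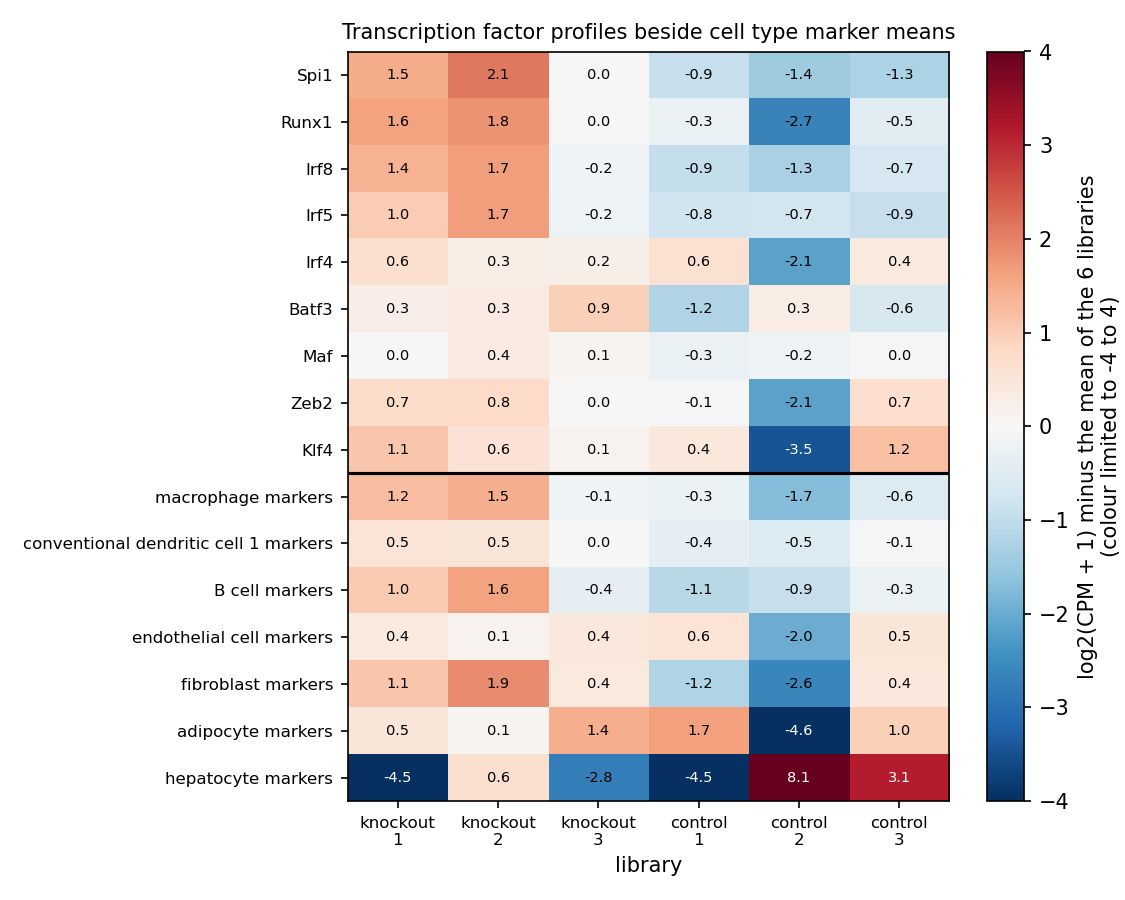
Centred log2(CPM + 1) of each transcription factor (upper rows) and the mean over cell type marker lists (lower rows) in the 6 libraries, each row minus its own mean, with colour limited to −4 to 4. Spi1, Runx1, Irf8 and Irf5 are highest in knockout replicates 1 and 2, as are the macrophage, B cell and fibroblast rows. Control replicate 2 is highest in the hepatocyte row and lowest in all other rows except Irf5, Batf3, Maf and B cell.

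Markers of several cell types moved with Spi1, Irf5, Irf8 and Runx1. The 15 macrophage markers had means of 7.40, 7.62 and 6.02 on the log2(CPM + 1) scale among knockouts, against 5.88, 4.44 and 5.60. Adgre1, which encodes the macrophage marker F4/80, had 268.0, 378.7 and 49.3 CPM against 28.9, 12.1 and 33.5 CPM. Of the 15 markers, 14 had edgeR log2 fold changes above 0, and 13 without control replicate 2. Mertk stood at 0.16 and Cd163 at −0.25, and at −0.21 and −0.62 without that library. The 7 B cell markers averaged 3.34, 3.90 and 1.93 in knockouts and 1.18, 1.36 and 2.03 in controls. The 7 fibroblast markers averaged 7.62, 8.43 and 6.90 in knockouts and 5.30, 3.92 and 6.95 in controls. The 8 T cell markers averaged 2.04, 2.08 and 1.57 in knockouts and 1.22, 1.00 and 1.22 in controls, with every knockout above every control as for the macrophage list. The B cell, fibroblast and mast cell lists overlapped between groups through knockout replicate 3 and control replicate 3, and the mast cell list (7 genes) stood at 2.23, 2.69 and 1.70 against 1.23, 0.253 and 1.75. The 7 neutrophil markers were high in control replicate 1 (4.06, against 0.945 to 1.56 in the other 5). The 8 monocyte markers overlapped, at 3.44, 3.33 and 2.99 in knockouts and 3.51, 2.33 and 2.94 in controls. Of 7 monocyte markers tested, 3 had log2 fold changes above 0, with a median of −0.35. For plasmacytoid dendritic cells 4 of 7 markers were tested, 2 lay above 0 and the median was −0.25. No marker in these lists was under 3 reads in every library, and the part of these cell types in the levels of the 9 factors was not tested.

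Levels were also set against the macrophage marker mean of the same library. Spi1 minus that mean was −0.729 ± 0.271 (SD, n = 3) in knockouts and −1.42 ± 0.562 in controls on the log2(CPM + 1) scale, a difference of 0.691 (exact two-sided permutation p = 0.3). For Irf5 the difference was −0.053 (exact permutation p = 1.0) and for Irf8 0.241 (p = 0.6, exact). Runx1 stood at −2.87 ± 0.142 and −3.43 ± 0.582, a difference of 0.554 at the smallest p that 3 against 3 libraries allow (exact permutation p = 0.1). The lowest Runx1 knockout value, −3.033 in replicate 3, lay just above the highest control value, −3.047 in replicate 3. Control replicate 2, with 3 reads of Runx1, stood at −4.097. Maf minus the macrophage mean stood at −1.07, −0.936 and 0.418 in knockouts and 0.182, 1.68 and 0.672 in controls, a difference of −1.375 (exact permutation p = 0.2). The differences were −0.932 for Irf4 (p = 0.2), −0.678 for Zeb2 (p = 0.2), −0.671 for Batf3 (p = 0.5) and −0.481 for Klf4 (p = 0.8), all from the exact permutation test and unadjusted. Without control replicate 2 the differences were 1.015 for Spi1, 0.424 for Irf5, 0.509 for Irf8, 0.219 for Runx1, −0.957 for Maf, −1.379 for Irf4, −1.051 for Zeb2, 0.171 for Batf3 and −1.473 for Klf4, so those of Irf5 and Batf3 changed sign. The macrophage list was chosen by cell type, and a mean over genes is no count of cells.

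Levels can be compared between genes only per length, for which the authors' FPKM values (fragments per kilobase of transcript, scaled to sequencing depth) were used within a library. Spi1 had the highest FPKM of the 9 in knockout replicates 1 and 2, at 31.2 and 49.7. It had 10.6 in knockout replicate 3 and 5.44, 4.07 and 4.40 in controls, where it ranked 3, 3 and 4. Klf4 ranked first in knockout replicate 3 and in control replicates 1 and 3, at 10.6, 12.9 and 23.3 FPKM, and seventh in control replicate 2, at 0.659 FPKM, where Maf ranked first (7.78 FPKM). The lowest FPKM in each library belonged to Irf4 or Runx1. In knockout replicates 1 and 2 this was Irf4, at 1.41 and 1.102, and in the 4 others Runx1, at 0.502, 0.411, 0.0209 and 0.364 FPKM.

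Other transcription factor genes of the myeloid lineage had a median nearer to that of all genes. Of 60 such genes 59 were tested, 44 had log2 fold changes above 0, and the median was 0.34 (0.29 without control replicate 2), against 48.0% of all genes above 0. By edgeR none passed after adjustment, while 3 were higher and 1 lower at an unadjusted p under 0.05. Of all genes tested, 4.38% were higher at that level. Every knockout was above every control for 8 of 59, and for 9.54% of all genes. The 3 higher genes were Tfeb, a regulator of lysosome genes, Cbfb and Rel, an NF-kappa-B subunit gene. Tfeb had 27.9, 38.3 and 21.1 CPM in knockouts and 9.29, 12.6 and 11.95 CPM in controls, with no overlap and a log2 fold change of 1.37 ± 0.33 (edgeR adjusted p 0.560). Rel had 13.1, 15.1 and 6.09 CPM in knockouts and 2.40, 3.49 and 6.56 CPM in controls, with knockout replicate 3 below control replicate 3 (1.46 ± 0.56). Cebpe, the lower gene, rested on control replicate 2, with 22.4 CPM there and 0.0981 to 0.770 CPM elsewhere (−4.75 ± 1.76, and −1.06 ± 0.96 without it). DESeq2 called none of the list with all 6 libraries and 3 higher without control replicate 2, where it called 2.22% of all genes higher.

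Those 3 included Tfeb and Cebpb, the latter named after its values were seen. Cebpb, whose C/EBP-beta protein acts in macrophages, fat cell precursors and hepatocytes, had 168.4, 114.7 and 153.7 CPM in knockouts and 50.6, 238.2 and 70.5 CPM in controls. Every knockout was above control replicates 1 and 3, and control replicate 2 was highest of all 6. Without that library the log2 fold change of Cebpb was 1.27 ± 0.29 (DESeq2 adjusted p 0.0106), and with all 6 libraries it was 0.28 ± 0.63.

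Genes commonly given as targets of PU.1 or of IRF8 had a higher median than the factors themselves. Of 32, 31 were tested, 29 had log2 fold changes above 0 and the median was 2.32 (2.11 without control replicate 2). By edgeR none passed after adjustment, and 22 were higher and 0 lower at an unadjusted p under 0.05, beside 4.38% of all genes higher. Every knockout was above every control for 19 of 31, beside 9.54% of all genes. DESeq2 called 12 of them higher with all 6 libraries (1.42% of all genes) and 17 without control replicate 2 (2.22% of all genes). The 4 of smallest p included Cd180, Itgb2 and Ncf4. Cd180, a Toll-like receptor relative of B cells and macrophages, had 36.4, 62.0 and 6.40 CPM in knockouts and 0.786, 1.16 and 2.75 CPM in controls (4.46 ± 0.97, edgeR adjusted p 0.560, DESeq2 0.000643). Itgb2, the beta chain of the leukocyte integrins, had 227.1, 369.0 and 54.8 CPM in knockouts and 19.9, 11.5 and 26.4 CPM in controls (3.49 ± 0.77).

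Ncf4, which encodes a subunit of the phagocyte NADPH oxidase, had 21.5, 30.9 and 8.42 CPM in knockouts and 4.42, 3.76 and 3.15 CPM in controls (2.42 ± 0.54). In these 3 genes each knockout lay above each control, with knockout replicate 3 nearest to them. A total of 5 of the 32 genes (Csf1r, Fcgr1, Cd14, Cd68 and Msr1) are also in the macrophage marker list, so the lists are not separate measures. Csf1r, the receptor of macrophage colony-stimulating factor, had 302.2, 427.4 and 106.9 CPM in knockouts and 90.6, 46.7 and 100.2 CPM in controls (1.82 ± 0.61, edgeR adjusted p 0.560). The 2 targets below 0 were Il1b (−1.14), at 0.311 to 2.59 CPM in all libraries, and the inhibitory Fc receptor gene Fcgr2b (−0.56), named after their values were seen. The promoters of 21 target genes, 24 windows in all, held the PU.1 core in 9 (37.5%), beside 23.3% of all windows. They held the RUNX site in 4.17% (14% of all windows) and the TATA box in 12.5% (12.4%). The AP-1 site was in 8.33% (6.75%), the interferon response core in 8.33% (2.98%) and the joint motif in 4.17% (2.3%). No test of these differences was made.

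**Figure D4:**
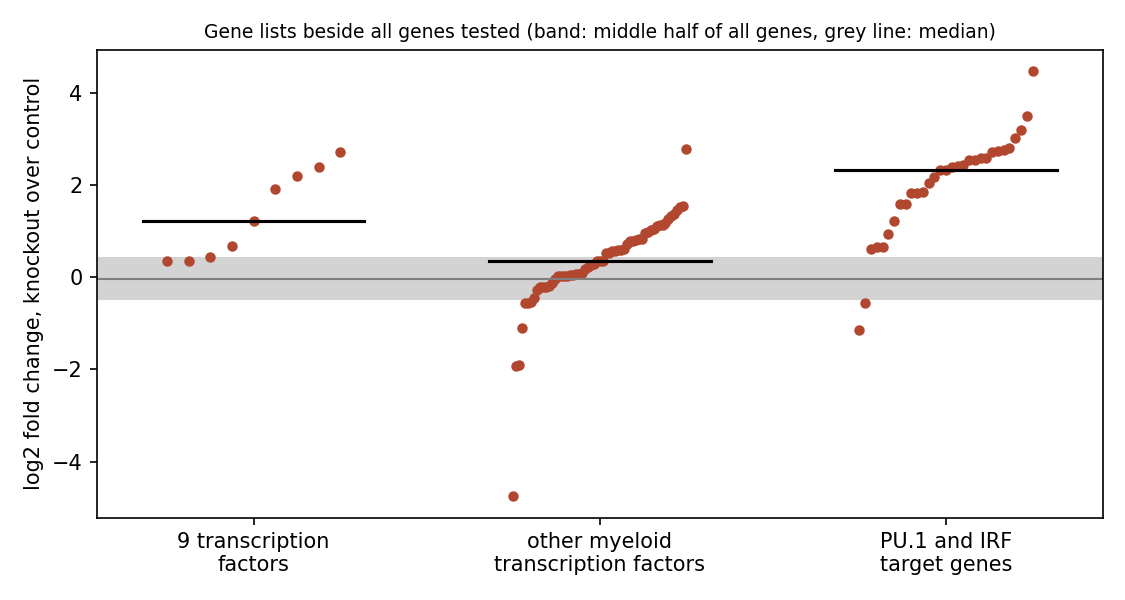
Log2 fold change, knockout over control (edgeR, all 6 libraries), of the 9 transcription factors, 59 other myeloid transcription factors and 31 PU.1 and IRF target genes, each sorted by value, with the list median as a black line. The grey band spans the middle of all 15928 genes tested, from the lower quartile of −0.48 to the upper quartile of 0.42. The medians are 1.21, 0.34 and 2.32.

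Some of the 9 genes share sequence with neighbours, and the labels and processing notes do not give the strand setting of the counting. Irf5 overlaps Tnpo3 on the opposite strand, which had 1994, 1652 and 1630 reads in knockouts and 1752, 412 and 2129 in controls. Irf5 itself had 1713, 2526 and 615 reads in knockouts and 406, 179 and 378 in controls. Both genes had their fewest reads in control replicate 2. Zeb2os, antisense to Zeb2, had 88 to 121 reads in 5 libraries and 0 in control replicate 2. Gm26626, antisense to Runx1, had 0 to 19 reads. Without strand, reads of such pairs cannot be told apart, so the Irf5 values are uncertain in this respect. The antisense reads of Zeb2os and Gm26626 are few beside those of Zeb2 (271 to 5561 reads) and Runx1 (3 to 765 reads).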

How the data were processed

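Total RNA from 6 fat samples was made into mRNA libraries, per the labels' protocols. Per the submitters' processing notes, mm10 was the build and the tools were fastp, featureCounts 1.5.0-p3, StringTie 1.3.3b and HISAT2 2.0.5. Strand, counting options and annotation release are not stated there. The authors deposited raw counts per gene, used for all tests, and FPKM values, used for levels between genes and for alternatives.

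Groups were taken from the genotype labels and replicates numbered in record order, with no pairing. Symbols were matched for 54409 of 54532 identifiers, with coordinates from GENCODE vM21. Counts were fitted whole with edgeR 4.0.16 (R 4.3.3; robust quasi-likelihood, TMM, filterByExpr, Benjamini-Hochberg adjustment at 0.05), 3 knockouts against 3 controls. SE is the log2 fold change over the root of F. Control replicate 2 had a TMM factor of 0.559, the others 0.982 to 1.25. Chi-square per degree of freedom between replicates was 62.8 to 1243, so each library counted as 1 sample. Fewer than 3 reads was taken as the floor, and the number of libraries and reads limits precision.

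The 9 genes and all lists were chosen with earlier results of these data known. Named are all 9, the 4 genes of smallest edgeR p in each of 2 lists, the first markers of cell type lists and the 3 nearest profiles to Spi1, Irf8 and Klf4. A few genes that this rule names are not reported here. Alternatives were DESeq2 1.42.0, limma 3.58.1 (voom; trend on log2(FPKM + 1) or + 0.1), other scaling and filters, a term for sample numbers, and libraries left out. Of these, 2 were added after seeing the data: DESeq2 without control replicate 2, and library totals without scaling. The tests were checked on simulated counts.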

Additional observations from a re-analysis of the deposited data

How the results depend on the processing

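Of the 9 factors, edgeR and limma called 0 under every setting run, on counts or FPKM, while DESeq2 called 3 with all 6 libraries and 4 without control replicate 2. Over all genes DESeq2 called 530 and 485, and edgeR and limma-voom called 0. DESeq2 without control replicate 2 called 3 of the other transcription factors, and DESeq2 called 12 target genes with all 6 libraries and 17 without that library. The cause of the difference between the tools was not tested. Over 17 alternatives each, Spi1 (2.19 to 3.12), Irf8 (1.53 to 2.60), Irf5 (1.42 to 2.37), Runx1 (0.90 to 2.86), Maf (0.24 to 0.74), Batf3 (0.82 to 2.60) and Zeb2 (0.23 to 1.32) kept log2 fold changes above 0. Irf4 turned negative without control replicate 2 (−0.11; −0.10 by DESeq2) and without control replicates 2 and 3 (−0.21), ranging from −0.11 to 0.92 with 1 library left out. Klf4 turned negative without control replicate 2 (−0.19 by edgeR and by DESeq2) and ranged from −0.19 to 1.18 with 1 library left out. Scaling by library totals moved the median of all genes from −0.03 to 0.34. There Spi1 stood at 3.12, Irf8 at 2.57, Irf5 at 2.37, Runx1 at 2.63 and Batf3 at 1.81. Maf stood at 0.74, Irf4 at 0.62, Zeb2 at 0.89 and Klf4 at 0.52, and all 9 lay above that median. For the level against the macrophage marker mean, the median over the 9 factors was taken in each library, and the knockout mean of these medians exceeded the control mean by 0.21 (0.06 to 0.44 with 1 library left out). The median of the 9 single differences was instead −0.481, with 6 of 9 below 0. No paired analysis was possible because the labels give no replicate numbers. Depth limits Runx1 and Irf4 in control replicate 2, each at 3 reads.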
